A study of Mus musculus with 4 samples.

Results

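The 10 genes described here encode the stored granule proteins, the ribonucleases, 3 surface receptors and the lipoxygenase by which mouse eosinophils are recognised. They were taken by symbol from 51912 Ensembl genes: Epx, Prg2, Prg3, Ear1, Ear2, Ear6, Siglecf, Il5ra, Ccr3 and Alox15. They were chosen by their FPKM in these same libraries, with the difference between Fam122a knockout (KO) and wild-type (WT) already known, so that difference is given below as a description and not as a test. The values are FPKM, fragment counts divided by gene length and by sequencing depth, in which levels of different genes can be compared.

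The libraries were 2 WT and 2 Fam122a KO samples of long-term haematopoietic stem cells (LT-HSCs) from C57BL/6 mice of 8 to 12 weeks, sorted as lineage-negative Sca1+ Kit+ (LSK) cells negative for CD34 and Flk2. Each library held cells mixed from 3 animals, so the spread between libraries is between pools. The labels used here do not give the Cre driver, the KO allele or any agent the animals received. Fam122a was listed at 18.4 and 7.46 FPKM in WT replicates 1 and 2 and at 0 in both KO libraries.

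WT replicate 2 was unlike the remaining libraries in its content. Its median ribosomal protein gene lay at 13.1 FPKM over 79 genes, against 312 to 468 FPKM in the other 3 libraries. Unannotated loci held 53.9% of its summed FPKM, against 9.14% in WT replicate 1 and 1.74% and 1.81% in KO replicates 1 and 2. Results are therefore given against WT replicate 1, with WT replicate 2 shown beside it. WT replicate 1 itself had 28063 Ensembl genes above 0, against 20611 and 20692 in KO replicates 1 and 2. Whether this bears on genes lower in KO was not tested. No file states the depth. The spacing of low values put WT replicate 1 at 4240000 fragments, WT replicate 2 at 2520000, KO replicate 1 at 6840000 and KO replicate 2 at 5900000, and limits drawn from these estimates cover counting error only. Of the sort markers, Kit was at 81.7 FPKM in WT replicate 1 and at 93.5 and 129 FPKM in the KO libraries, and Ly6a, which encodes Sca1, at 201, 230 and 205 FPKM in the same order. Of the genes the gate excludes, Cd34 was at 179, 87.7 and 62.1 FPKM and Flt3, which encodes Flk2, at 26.2, 36.2 and 24.7 FPKM.

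Eosinophils arise in the marrow from granulocyte progenitors under the control of GATA1, C/EBP factors and PU.1, and mature in response to interleukin 5. They fill their granules early, with major basic protein, a peroxidase and ribonucleases, and display receptors for interleukin 5 and for eotaxins that guide them to tissue. Mature eosinophils carry Siglec-F on the surface and are not part of a stem cell gate.

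The ribonuclease genes are shown first because their likeness limits how far their values can be told apart. The opening 120 bases of the coding sequence of each, read from GENCODE M21 transcripts (GRCm38), follow from the start codon, and capitals mark the 16 positions at which the 3 genes are not all the same.
Ear1: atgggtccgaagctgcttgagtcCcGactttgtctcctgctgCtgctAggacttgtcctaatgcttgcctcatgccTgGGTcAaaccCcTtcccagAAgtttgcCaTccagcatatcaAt
Ear2: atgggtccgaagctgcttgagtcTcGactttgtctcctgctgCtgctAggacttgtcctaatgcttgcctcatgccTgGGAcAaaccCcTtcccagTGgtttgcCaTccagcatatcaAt
Ear6: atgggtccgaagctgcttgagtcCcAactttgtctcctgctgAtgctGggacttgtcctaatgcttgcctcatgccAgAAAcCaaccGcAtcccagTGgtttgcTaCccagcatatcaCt
Over the whole coding sequence Ear1 and Ear2 were 95.1% identical, Ear1 and Ear6 87.4%, and Ear2 and Ear6 87.7%. Of all stretches of 50 bases in the transcripts, 28.6% of those of Ear1 and 37.6% of those of Ear2 also occurred in another gene of the family, against 0.95% for Ear6. Ear10, whose coding sequence was 97.0% identical to that of Ear2, was listed at 0 in all 4 libraries. The division of reads among Ear1, Ear2 and Ear10 is therefore uncertain, and Ear6 is less exposed to it.

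Promoters are shown for 3 members in which a GATA sequence was found, as GATA1 is the lineage's leading regulator. RefSeq windows of 250 bases before the start (GRCm38.p6) were matched for 8 of the 10 genes, and Prg2 and Alox15 had no entry. Capitals mark the hexamer AGATAA, the hexamer AGATAG, the hexamer TGATAA or the hexamer TGATAG on either strand, and the windows are given 5′ to 3′ on the strand of the gene.
Prg3, chr2:84987965-84988214, plus strand: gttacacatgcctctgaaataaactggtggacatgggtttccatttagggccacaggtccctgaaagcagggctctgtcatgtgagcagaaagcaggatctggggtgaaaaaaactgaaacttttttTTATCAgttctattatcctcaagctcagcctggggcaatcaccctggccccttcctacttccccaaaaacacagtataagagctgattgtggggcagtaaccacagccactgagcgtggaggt
Il5ra, chr6:106749038-106749287, minus strand: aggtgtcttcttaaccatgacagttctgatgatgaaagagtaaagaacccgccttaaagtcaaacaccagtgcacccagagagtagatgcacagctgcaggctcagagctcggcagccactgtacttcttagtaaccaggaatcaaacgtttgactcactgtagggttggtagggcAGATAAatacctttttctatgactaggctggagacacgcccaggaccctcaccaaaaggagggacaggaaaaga
Ccr3, chr9:124021721-124021970, plus strand: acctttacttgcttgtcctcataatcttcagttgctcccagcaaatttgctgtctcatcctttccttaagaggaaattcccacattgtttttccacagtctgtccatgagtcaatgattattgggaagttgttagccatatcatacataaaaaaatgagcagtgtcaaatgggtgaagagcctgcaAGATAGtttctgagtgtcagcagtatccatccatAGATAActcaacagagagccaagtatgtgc
These matches began 123 bases before the start in Prg3, 74 in Il5ra, and 64 and 30 in Ccr3. Of the 8 windows, 3 held such a match, against 27.1% of 27025 windows of the same length. The C/EBP sequence TTGCNNAA was in 2 of the 8 (Ear1 and Ear2) against 9.55% of all, and the ETS sequence GAGGAA in 2 (Siglecf and Ccr3) against 23.1%, both strands read. The windows of Ear1 and Ear2 were 97.6% identical, so they count as nearly the same sequence.

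The granule protein genes were higher in both KO libraries than in either WT library. Prg2 encodes major basic protein, the crystalline core of the eosinophil granule (ENSMUSG00000027073, GRCm38 chromosome 2, 84980461 to 84983632, plus strand). It was at 947 and 11.5 FPKM in WT replicates 1 and 2 and at 8593 and 4666 FPKM in KO replicates 1 and 2. It was the highest member in WT replicate 1 and both KO libraries, and ranked 94 among all Ensembl genes in WT replicate 1, 8 in KO replicate 1 and 12 in KO replicate 2. The KO libraries thus stood 9.08-fold and 4.93-fold above WT replicate 1, with a KO mean of 6629.8 ± 2777 FPKM (SD, n = 2).

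Prg3 encodes a second major basic protein (ENSMUSG00000027072, chromosome 2, 84988215 to 84993886, plus strand) and lies 4582 bp from Prg2 with no coding gene between them. The coding sequences of Prg2 and Prg3 were 64.5% identical and shared no stretch of 50 bases, so their values can be read apart. Prg3 was at 67.7 and 0.93 FPKM in the WT pair, against 550.1 and 277 FPKM in KO, or 8.13-fold and 4.09-fold above WT replicate 1. In WT replicate 1 and the KO libraries Prg3 lay between 5.93% and 7.15% of the level of Prg2.

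Epx encodes eosinophil peroxidase, which makes hypobromous acid from bromide (ENSMUSG00000052234, chromosome 11, 87864000 to 87875536, minus strand). Its values were 41.8 and 0.64 FPKM in the WT pair, against 748 and 403 FPKM in KO. The KO libraries were 17.9-fold and 9.63-fold above WT replicate 1, the widest gap of the 10 genes in both libraries. Mpo, the neutrophil peroxidase gene 59586 bp away on the same chromosome, went the other way, at 2666 and 20.97 FPKM in the WT pair, against 1799 and 1858 FPKM in KO.

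The ribonuclease genes followed the granule proteins. Ear1 (ENSMUSG00000072601, chromosome 14, 43818765 to 43875517, minus strand) was at 243 and 6.38 FPKM in the WT pair, against 1995 and 982 FPKM in KO. Ear2 (ENSMUSG00000072596, chromosome 14, 44102654 to 44103534, plus strand) was at 246 and 3.94 FPKM in the WT pair, against 1462 and 737 FPKM in KO. Both encode secreted eosinophil-associated ribonucleases. Ear1 and Ear2 were almost level in WT replicate 1, and Ear1 was above Ear2 in both KO libraries. The annotated span of Ear1 includes a distal exon of another transcript. Ear6 (ENSMUSG00000062148, chromosome 14, 51853699 to 51854643, plus strand) was at 172 and 0 FPKM in the WT pair, against 1118 and 495 FPKM in KO. In WT replicate 2, 3 fragments of Ear6 would have given 1.64 FPKM. Relative to WT replicate 1 the KO libraries were 8.19-fold and 4.03-fold higher for Ear1, 5.95-fold and 3.00-fold for Ear2, and 6.51-fold and 2.88-fold for Ear6.

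Other ribonuclease genes of the superfamily were mostly low. Of 13 outside the members that matched a symbol, 2 had both KO libraries above WT replicate 1 and 5 had both below. The shares of all genes tested were 48.5% and 35.7%. Rnase6, an antimicrobial ribonuclease of monocytes and macrophages, was at 47.8 FPKM in WT replicate 1, against KO values of 23.1 and 16.3 FPKM. Rnase2a, a closer relative of the members, was at 9.53 FPKM in WT replicate 1, against KO values of 2.01 and 7.66 FPKM. Rnase12 was at 2.33 FPKM in WT replicate 1, against KO values of 30.5 and 6.20 FPKM. Rnase4 lay at 12.1, 9.49 and 7.25 FPKM, Ang at 3.37, 0.80 and 0.30 FPKM, and Rnase10 at 0.37, 1.29 and 0 FPKM, each in the order WT replicate 1, KO replicate 1 and KO replicate 2.

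Alox15 encodes the 12/15-lipoxygenase that oxygenates arachidonic acid in eosinophils and resident macrophages (ENSMUSG00000018924, chromosome 11, 70344152 to 70352031, minus strand). It was at 18.7 and 1.78 FPKM in the WT pair, against 287 and 172 FPKM in KO, a KO mean of 229 ± 81.2 FPKM (SD, n = 2). Both KO libraries lay above both WT libraries, by 15.3-fold and 9.18-fold over WT replicate 1.

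The surface receptor genes lay below the other members in WT replicate 1 and both KO libraries, while Il5ra was the highest member in WT replicate 2. Siglecf encodes the sialic acid receptor used to sort mouse eosinophils (ENSMUSG00000039013, chromosome 7, 43351341 to 43359531, plus strand). It was at 4.11 and 0 FPKM in the WT pair, against 21.7 and 9.34 FPKM in KO, where the estimated fragments were 44.3 in WT replicate 1 and 375 and 141 in KO. Ccr3 encodes the eotaxin receptor (ENSMUSG00000035448, chromosome 9, 124021972 to 124031689, plus strand) and was at 3.17 and 0.13 FPKM in the WT pair, against 10.8 and 10.9 FPKM in KO. Its KO values were almost equal (mean 10.8 ± 0.13 FPKM, SD, n = 2), unlike those of the granule genes. Its chromosomal neighbours Ccr1 and Ccr2, receptors of neutrophils and monocytes, lay at 65.9 and 106 FPKM in WT replicate 1 and were lower in both KO libraries (35.2 and 25.1 FPKM, and 83.6 and 51.2 FPKM).

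Il5ra, which encodes the interleukin 5 receptor alpha chain, was the one member whose order depended on the WT library (ENSMUSG00000005364, chromosome 6, 106710357 to 106749037, minus strand). It was at 1.35 and 19.4 FPKM in the WT pair, against 2.84 and 4.91 FPKM in KO. Both KO libraries lay above WT replicate 1, by 2.104-fold and 3.64-fold, and below WT replicate 2. The value in WT replicate 1 rested on an estimated 19.0 fragments. The genomic span of Il5ra was 10.8 times its exonic length, wider than in the other members except Ear1. Whether that bears on its value in WT replicate 2 was not tested.

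**Figure D1:**
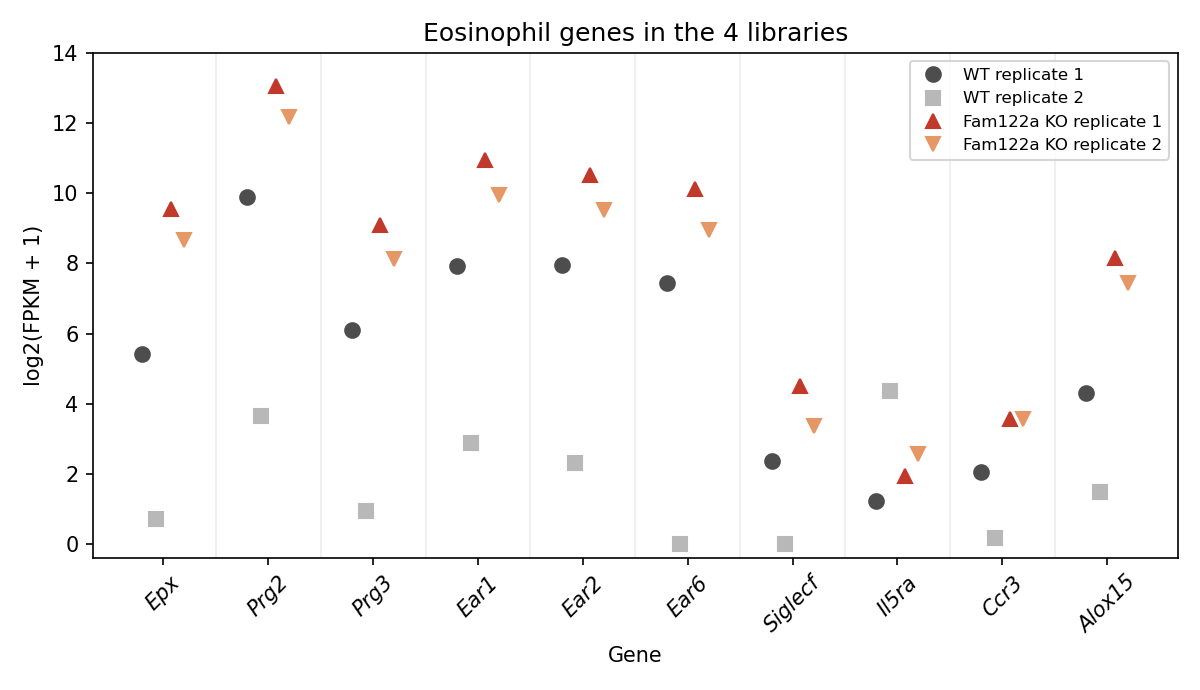
Level of each gene, as log2(FPKM + 1), in the 4 libraries; each point is 1 library. Both KO libraries lie above both WT libraries for 9 of the 10 genes, and Il5ra is the exception, with WT replicate 2 highest at 19.4 FPKM.

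Together the 10 genes held 0.18% of the summed FPKM of Ensembl genes in WT replicate 1, 0.0075% in WT replicate 2, 1.81% in KO replicate 1 and 0.97% in KO replicate 2. Their sum was 8.48-fold and 4.45-fold above WT replicate 1 in the KO libraries, and 7.76-fold and 3.87-fold without Prg2. All 10 lay above WT replicate 1 in both KO libraries, which also held for 48.5% of the 13848 genes with at least 1 FPKM in at least 2 of these 3 libraries. On FPKM + 1, both KO libraries were more than 2-fold above WT replicate 1 in 9 members, against 6.06% of those genes, and more than 4-fold above it in 5 members, against 0.607%. Both lay above both WT libraries in 9 members, against 30.8% of 18214 genes. Since the members were chosen with this contrast known, nothing is read from these counts. In bulk libraries, more eosinophil-lineage cells and more of these transcripts per cell cannot be told apart.

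Fitted with limma on log2(FPKM + 1) and without WT replicate 2, the difference between KO and WT replicate 1 ranged from 1.02 (SE 0.45) in Il5ra to 3.68 (SE 0.42) in Epx, with a median of 2.31 over the 10 members and 0.12 over all genes tested. The single WT library is assumed there to vary like the KO pair. At an adjusted p below 0.05 limma called 1 of the 10 higher, Alox15, against 0.181% of all genes higher and 1.42% lower. With a filter at 5 FPKM or a pseudocount of 0.1 it called 0 of the 10. After scaling to equal Ensembl totals it called 7 of the 10, against 8.23% of 13711 genes higher and 3.93% lower. That scaling moved the median of all genes to 0.33 and that of the members to 2.54. With all 4 libraries limma called 0 of the 10, against 0% of 18214 genes in either direction. An unadjusted p below 0.05 was then reached by 3 of the 10 and by 22.3% of all genes tested. In that fit the median was 4.98 over the members and 0.22 over all genes. All 10 passed the filter in both fits and were at 1 FPKM or more in WT replicate 1 alone.

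The KO libraries differed from each other in these genes. KO replicate 1 was above KO replicate 2 by 1.84-fold for Prg2, 1.86-fold for Epx and 1.99-fold for Prg3. The ratio was 2.03 for Ear1, 1.98 for Ear2, 2.26 for Ear6, 2.32 for Siglecf and 1.67 for Alox15. Ccr3, at a ratio of 0.98, and Il5ra, at 0.58, did not follow them. The median difference was 0.94 on the log2(FPKM + 1) scale over the 10 members and -0.023 over the 13848 genes. On that scale 3 members (Ear1, Ear6 and Siglecf) were past 2-fold higher in KO replicate 1, against 2.91% of genes, and 0 were past it in KO replicate 2, against 3.99%. With 1 library on each side there is no test of this difference. The summed markers of other marrow cells moved less between the KO libraries, by 1.15-fold for neutrophils, 1.17-fold for basophils and mast cells, and 1.27-fold for macrophages and monocytes.

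**Figure D2:**
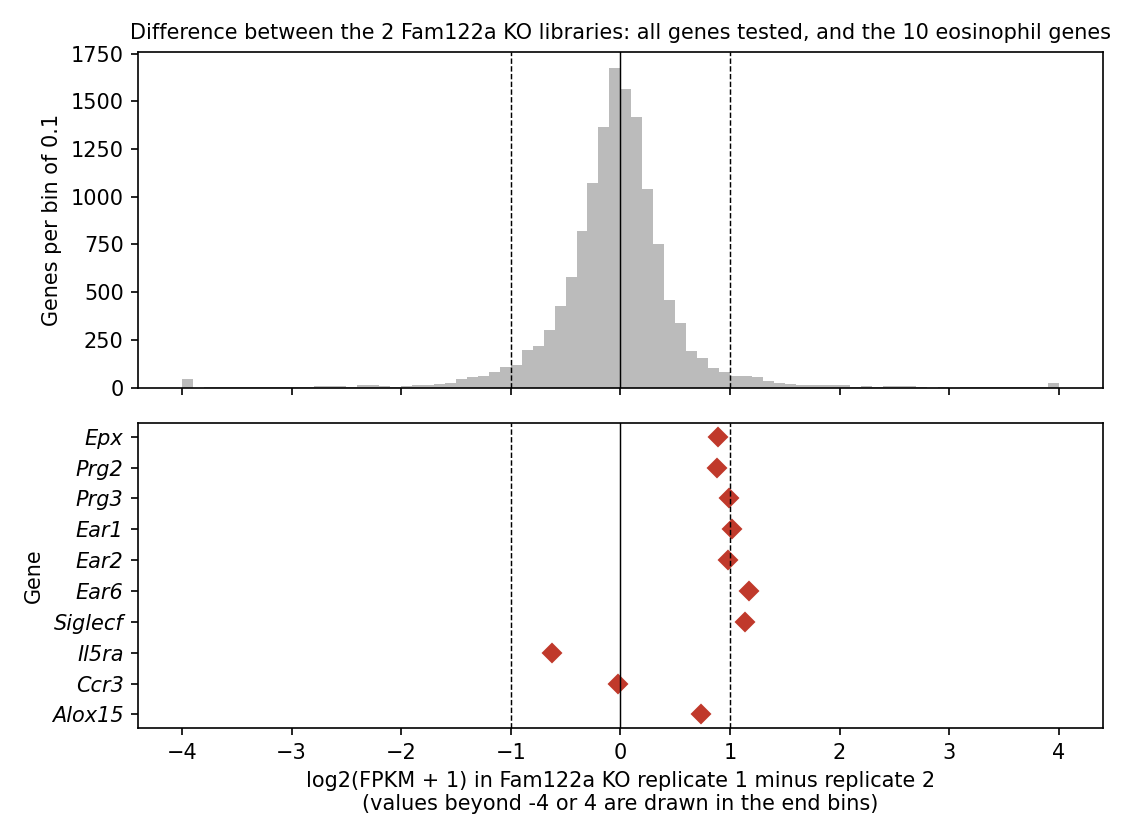
Difference in log2(FPKM + 1) between KO replicate 1 and KO replicate 2, as a histogram of 13848 genes (top) and for each eosinophil gene (bottom), with dashed lines at 2-fold. In 8 of the 10 genes the difference lies between 0.73 and 1.18, while Ccr3 and Il5ra lie at -0.022 and -0.62.

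The proportions among the granule, ribonuclease and Alox15 genes were closer in the KO pair than the levels were, which did not hold for Ccr3 and Il5ra. Taken as a share of Prg2 in the same library, Ear1 was at 25.7% in WT replicate 1 and 23.2% and 21.1% in the KO libraries, and Ear2 at 26.0%, 17.0% and 15.8%. Ear6 was at 18.1%, 13.01% and 10.6% in the same order. Epx and Alox15 stood higher relative to Prg2 in KO, at 4.42%, 8.70% and 8.63% for Epx and 1.98%, 3.34% and 3.68% for Alox15. The receptor genes were each below 0.5% of Prg2, with Siglecf at 0.43%, 0.25% and 0.20%. The order of levels in KO was Prg2, Ear1, Ear2, Ear6, Epx, Prg3 and Alox15 in both libraries. Below these, Siglecf and Ccr3 changed places between the KO libraries, so their order is not settled, and Il5ra was lowest in both.

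**Figure D3:**
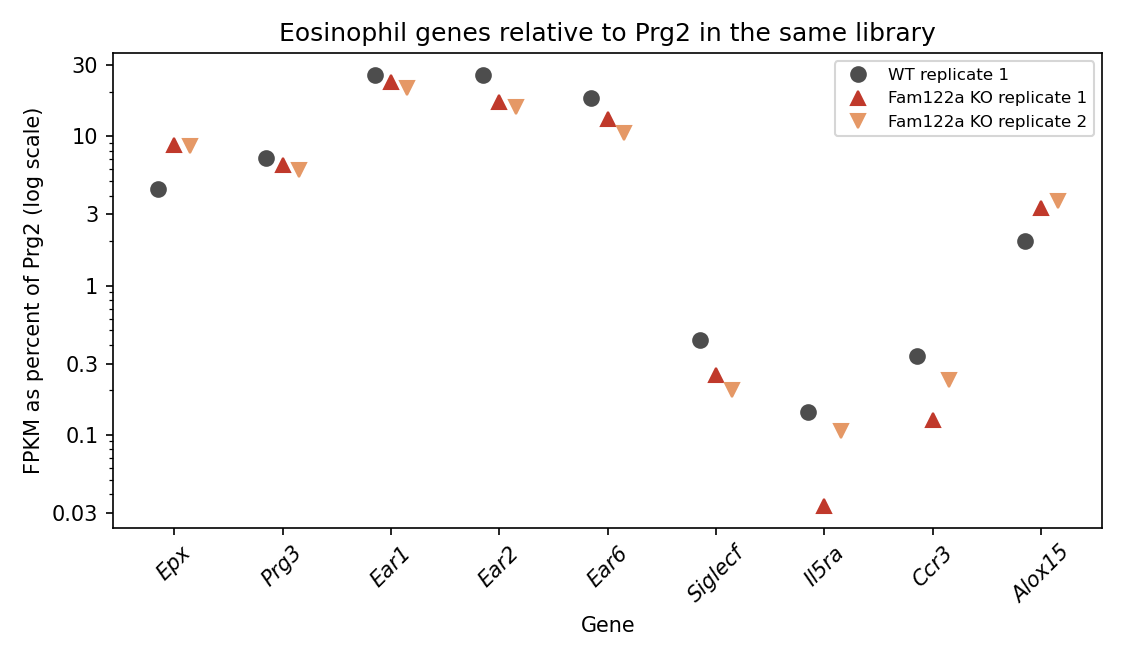
Level of 9 genes as a percent of Prg2 in the same library, on a log axis, in WT replicate 1 and the KO libraries. The KO points of Epx lie at 8.70% and 8.63%, above 4.42% in WT replicate 1, and the ribonuclease points lie lower in KO.

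Markers of other marrow cells differed by list, and their part in the values of the eosinophil genes was not tested. The 14 neutrophil markers summed to 177922 FPKM in WT replicate 1, 366 FPKM in WT replicate 2, 78211 FPKM in KO replicate 1 and 67916 FPKM in KO replicate 2. All 14 were lower in both KO libraries than in WT replicate 1, against 35.7% of all genes tested. The 13 basophil and mast cell markers summed to 554 and 54.4 FPKM in the WT pair, against 515 and 441 FPKM in KO. Both KO libraries lay above WT replicate 1 in 3 and below it in 7, against 48.5% and 35.7% of all genes tested. Among these markers Mcpt8 and Prss34, basophil proteases, were at 97.3 and 236 FPKM in WT replicate 1, at 81.1 and 205 FPKM in KO replicate 1 and at 72.2 and 194 FPKM in KO replicate 2. The connective tissue mast cell proteases Cma1 and Mcpt4 were at 0 in both WT libraries and at most at 0.71 FPKM in KO.

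Macrophages also express Alox15, and mouse macrophages of some tissues express Siglecf and Ear genes, so their markers were read as well. The 15 macrophage and monocyte markers summed to 7985 and 143 FPKM in the WT pair, against 5902 and 4633 FPKM in KO. Most of that sum came from Chil3 and Ly6c2, and without them the other 13 summed to 544 FPKM in WT replicate 1, 584 FPKM in KO replicate 1 and 482 FPKM in KO replicate 2. Of the 15, 8 had both KO libraries above WT replicate 1 and 6 had both below, against 48.5% and 35.7% of all genes tested. Chil3 and Ly6c2, abundant in monocytes, were lower in KO (4152 FPKM in WT replicate 1 against 2856 and 2430 FPKM, and 3289 against 2463 and 1721 FPKM). Cx3cr1, Cd68 and Timd4 of the same list were lower as well. Cx3cr1 was at 30.1 FPKM in WT replicate 1, against KO values of 8.22 and 5.93 FPKM. Cd68 lay at 99.1, 78.4 and 83.75 FPKM and Timd4 at 1.53, 0.46 and 1.35 FPKM in the same order. Adgre1, which encodes F4/80 of macrophages and eosinophils, was at 12.1 and 0.14 FPKM in the WT pair, against 36.4 and 22.9 FPKM in KO. The complement genes C1qa, C1qb and C1qc of resident macrophages were also higher than in WT replicate 1, at 10.6, 22.4 and 16.1 FPKM there, 23.3, 38.7 and 27.3 FPKM in KO replicate 1 and 34.1, 42.4 and 35.7 FPKM in KO replicate 2. The 3 complement genes were thus higher in KO replicate 2 than in KO replicate 1, the reverse of the granule genes. The list as a whole did not share this order. Over its 13 tested markers the median of KO replicate 1 minus KO replicate 2 was 0.23 on the log2(FPKM + 1) scale. Marco and Vsig4, scavenger and complement receptors of tissue macrophages, were at 0 in both WT libraries and at most at 1.13 FPKM in KO. Whether macrophage RNA adds to Alox15 or Siglecf was not tested.

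**Figure D4:**
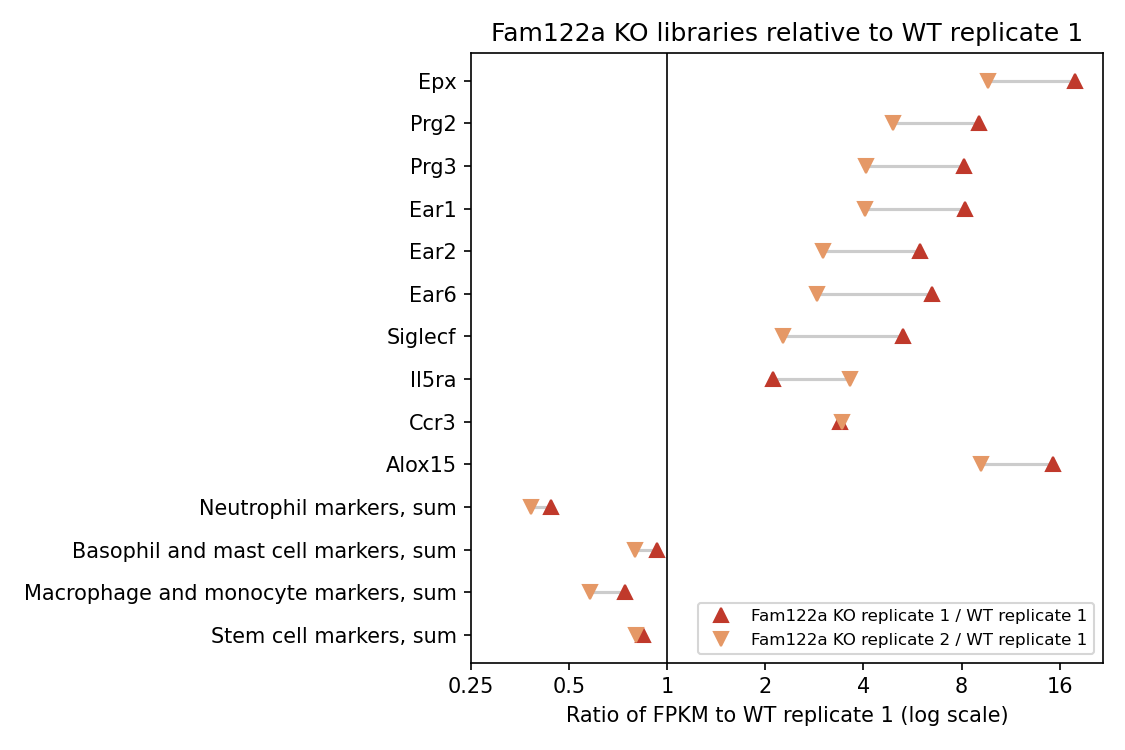
Ratio of each KO library to WT replicate 1, on a log axis, for the 10 eosinophil genes and for summed marker lists of stem cells and other marrow cells. The stem cell list includes Cd34 and Flt3, which the gate excludes, and its ratios are 0.84 and 0.80. Without Ly6a and Cd34, its 2 most abundant genes, they are 0.85 and 0.89. The eosinophil genes lie between 2.104 and 17.9, and the 4 marker sums lie between 0.38 and 0.93, the macrophage and monocyte sum resting mostly on Chil3 and Ly6c2 (without them its ratios are 1.07 and 0.89).

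Regulators of the eosinophil lineage were mostly higher in KO than in WT replicate 1, and none passed the test. Of 13 genes, 10 had both KO libraries above WT replicate 1 and 2 had both below, against 48.5% and 35.7% of all genes tested. Limma called 0 without WT replicate 2, and the median log2 difference was 0.35, against 0.12 over all genes. At an unadjusted p below 0.05 were 4 of the 13, against 29.1% of all 13848 genes. Cebpe, a late granulocyte factor needed for eosinophil maturation, was at 50.9 FPKM in WT replicate 1, against KO values of 68.5 and 55.3 FPKM. Spi1, which encodes PU.1, was at 169, 247 and 190 FPKM in the same order, and Irf8, a monocyte factor that eosinophil development also requires, at 45.2, 92.6 and 92.2 FPKM. Cebpb lay at 145, 174 and 172 FPKM, Xbp1, a secretory factor that eosinophil precursors need, at 108, 135 and 133 FPKM, and Id2 at 87.5, 103 and 56.5 FPKM. The 2 genes with both KO libraries below WT replicate 1 were Cebpa and Id1. Cebpa was at 6.63, 6.15 and 4.92 FPKM and Id1 at 19.3, 19.1 and 11.8 FPKM. Gata1 and its cofactor gene Zfpm1, chosen after their values were seen, were at 16.9 and 6.00 FPKM in WT replicate 1, 37.3 and 30.2 FPKM in KO replicate 1 and 51.9 and 22.0 FPKM in KO replicate 2. Both also act in red cell precursors. Gata1 was higher in KO replicate 2, against the order of the granule genes, and Zfpm1 was higher in KO replicate 1, in their order. Which cells these transcripts came from was not tested.

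Cytokine and receptor genes of the lineage were divided. Il5 and Il3 were at 0 in all 4 libraries, and the eotaxin genes Ccl11 and Ccl24 did not exceed 0.45 FPKM outside WT replicate 2. Il33, an alarmin gene named after its values were seen, was at 2.45 and 11.95 FPKM in the WT pair, against 0.32 and 0.36 FPKM in KO. Csf2rb, the beta chain that pairs with the interleukin 5 receptor, was at 33.0 FPKM in WT replicate 1, against KO values of 64.6 and 43.8 FPKM. Csf2ra was at 62.0, 91.9 and 90.9 FPKM in the same order. Il4ra lay at 24.3, 37.6 and 32.4 FPKM, and Stat5b, a transducer of these receptors, at 26.0, 41.6 and 44.9 FPKM. Cish, a feedback target of STAT5, was at 22.0, 36.2 and 44.5 FPKM, and Lyn, a receptor-associated kinase, at 96.1, 102 and 72.3 FPKM. The receptor chain genes Il1rap and Il13ra1, also named after their values were seen, were lower in KO, at 12.3, 9.88 and 8.06 FPKM and at 10.2, 8.10 and 4.99 FPKM. Il1rl1 of the same list, named in the same way, was higher in KO than in WT replicate 1. It was at 0.83 and 4.32 FPKM in the WT pair, against 4.53 and 4.50 FPKM in KO. Of the 19 genes, 10 had both KO libraries above WT replicate 1 and 5 had both below, against 48.5% and 35.7% of all genes tested. Limma tested 13 without WT replicate 2 and called 0, with 4 at an unadjusted p below 0.05, against 29.1% of all genes.

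Other lipid mediator genes were divided. Of 20 such genes, 6 had both KO libraries above WT replicate 1 and 8 had both below, against 48.5% and 35.7% of all genes tested. Limma called 0 of 15 tested, with a median log2 difference of -0.075. At an unadjusted p below 0.05 were 4 of the 15, against 29.1% of all genes. Alox5 and Alox5ap, which start leukotriene synthesis, were at 48.6 and 417 FPKM in WT replicate 1, 66.2 and 321 FPKM in KO replicate 1 and 66.8 and 222 FPKM in KO replicate 2. Gpx4, which reduces lipid peroxides, was at 428 FPKM in WT replicate 1, against KO values of 439 and 444 FPKM. Lta4h lay at 382, 386 and 340 FPKM and Ltb4r1, the leukotriene B4 receptor gene, at 152, 145 and 119.95 FPKM in the same order. Ptgs1, which encodes cyclooxygenase 1, was at 47.6 FPKM in WT replicate 1, against KO values of 32.6 and 28.3 FPKM. The prostaglandin D2 receptor gene Ptgdr2, a mark of mature eosinophils and basophils, did not exceed 0.07 FPKM in any library.

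Broad surface and trafficking genes of eosinophils, most of them shared with other granulocytes, were divided. Of 22 genes, 9 had both KO libraries above WT replicate 1 and 11 had both below, against 48.5% and 35.7% of all genes tested. Limma called 0 of 20 tested, with a median log2 difference of -0.22. At an unadjusted p below 0.05 were 7 of the 20, against 29.1% of all genes. Fcer1g, the signalling chain of Fc receptors, was at 1222 FPKM in WT replicate 1, against KO values of 785 and 529 FPKM. Itgb2, the beta-2 integrin gene, was at 174, 266 and 227 FPKM, and Pirb, an inhibitory receptor gene, at 268, 298 and 308 FPKM. Cd63, a granule membrane gene, lay at 422, 363 and 283 FPKM and Cd24a at 408, 423 and 485 FPKM. The histamine receptor gene Hrh4 was at or below 0.18 FPKM in all 4 libraries.

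The genes most like the members were sought by the distance between log2(FPKM + 1) profiles, centred over the 4 libraries, among 8302 coding genes at 10 FPKM or more in a KO library. The 5 nearest to the members' mean profile were Vpreb3 (distance 0.81), Atp13a2 (0.87), Otud5 (0.93), Rasal3 (0.94) and Irf3 (0.94), which include no further eosinophil granule gene. Their levels in WT replicate 2 were at most 4.27 FPKM, against 20.3 to 64.1 FPKM in WT replicate 1. Between the KO libraries most did not follow the granule genes. Vpreb3 was at 241 and 288 FPKM in KO replicates 1 and 2, Atp13a2 at 80.8 and 86.6 FPKM. Otud5 lay at 85.0 and 101 FPKM and Rasal3 at 69.7 and 75.0 FPKM. Only Irf3 was higher in KO replicate 1, at 65.7 against 40.2 FPKM. The members themselves lay between 0.98 (Alox15) and 6.91 (Il5ra) from their own mean. Over 4 libraries this likeness is a description only.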

How the data were processed

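The deposited files hold 1 FPKM value per feature, made by the authors; the unit was inferred from the values. Per the submitters' processing notes bcl2fastq, STAR 2.7.1a and HISAT2 2.1.0 were named with GRCm38.p5 and mm10, without roles. The quantifier and annotation were not given in the sources used here, and the library kit does not mark strand. Of 87703 features, 51912 were Ensembl genes, of which 51633 had a symbol and 51719 were in GENCODE M21, the source of gene coordinates and lengths. The 35791 unannotated loci were left out.

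Depth was estimated from genes with 1 exon and 1 transcript, whose low values fall on steps of 1 fragment: 86.1% to 90.7% lay within 0.1 of a whole number. Estimated fragments of genes with several exons are approximate.

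All Ensembl genes with at least 1 FPKM in at least 2 fitted libraries were fitted with limma 3.58.1 (R 4.3.3) on log2(FPKM + 1), using a trend of variance on level and Benjamini-Hochberg adjustment. Fold changes of low genes are understated on this scale, while the ratios in the text are of FPKM. The fit was also run on simulated data, 2 libraries against 2, all with the spread of the KO pair. That setting matches neither the WT pair nor the fit without WT replicate 2, so nothing is read from it. The samples were grouped by title. The members and lists were chosen with earlier results of these data known. All members are named, with the 6 most abundant genes of each list, by mean over WT replicate 1 and both KO libraries, but for the neutrophil, stem cell and other marker lists, where examples were picked after their values were seen. Of the surface and trafficking list, 1 of these 6 genes is not reported here. Of 16 listed ribonuclease relatives, 3 symbols (Ear3, Ear4 and Ear5) had no match. Alternatives covered the filter, pseudocount, scaling, quantile normalization, threshold, replicate block and each library left out.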

Additional observations from a re-analysis of the deposited data

How the results depend on the processing

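Of 109 alternative values of single members with all 4 libraries, 105 moved by less than the spread between libraries, 3 moved by more and 1 changed sign: Il5ra, at -0.54 with all 4 libraries, 1.02 without WT replicate 2 and -2.10 without WT replicate 1. Of 79 without WT replicate 2, 74 moved by less than that spread, 5 moved by more and 0 changed sign. Leaving out 1 library or adding the replicate block cannot move a value by more than that spread. Those settings are included in the counts above and decide nothing. The difference for Epx was 6.04 with all 4 libraries, 8.39 without WT replicate 1 and 3.68 without WT replicate 2. The cause of the moves and of the change of sign was not tested. Leaving out 1 library at a time from the 4 gave 0 to 7971 genes higher, 0 to 3155 lower and 0 to 9 members called, with 7971 higher and 9 members without WT replicate 1 and 25, 196 and 1 without WT replicate 2. The median of all genes moved from 0.22 to 1.61 without WT replicate 1. The members' median log2 difference, leaving out 1 library at a time, ranged from 2.31 to 7.62. The replicate numbers share no stated litter, batch or day, and the deviations of same-numbered libraries correlated at 0.055. With the replicate number as a block, limma called 0 genes and 0 members, and the median stayed at 4.98.

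Without WT replicate 2, limma called 25 genes higher, 196 lower and 1 member. With the filter at 5 FPKM these counts were 0, 0 and 0, with a pseudocount of 0.1 they were 0, 0 and 0, and with a pseudocount of 5 they were 101, 524 and 2. Scaling to equal totals gave 1128, 539 and 7, no filter 761 and 9265 genes, quantile normalization 15 genes higher and 0 members, and a threshold of 0.1 gave 904, 796 and 6. Without a filter the median of all genes turned negative, to -0.34 with all 4 libraries and -0.23 without WT replicate 2. With a pseudocount of 5, 163 genes were past 2-fold in KO replicate 1 and 188 in KO replicate 2, in place of 403 and 552. In WT replicate 2 Ear6 and Siglecf were at 0, where 3 fragments would have given 1.64 and 0.46 FPKM. Leaving out the 2 most abundant genes of each marker list, chosen after seeing the data, gave the macrophage and monocyte sum ratios of 1.07 and 0.89 to WT replicate 1, in place of 0.74 and 0.58, and the neutrophil sum 0.66 and 0.61, in place of 0.44 and 0.38.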
